A study of Mus musculus with 9 samples.

Results

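The baseline transcriptome of the embryonic mouse lens was described from the control lenses of a study of the small Maf transcription factors, which make up 3 of its 9 libraries. Control lenses were taken at embryonic day E16.5 and carried 1 germline knockout allele each of *Mafg* and *Mafk* (*Mafg*+/-:*Mafk*+/-). They are double heterozygous and not wild type, and no wild-type library was analysed here. RNA of 8 lenses was pooled in each library, and the mice were kept on an ICR background. Entries of the expression table without a gene symbol were left out, which kept 15782 genes from 22013 entries. No comparison with knockout lenses was made, so levels, ranks and the spread between the 3 replicates are described, with no test between groups.

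The lens has a pair of cell types inside a capsule, which is a thick basement membrane. A monolayer of epithelial cells covers its anterior side and holds the dividing cells. Epithelial cells that stop dividing at the rim of this layer become the long fiber cells, which fill with crystallins, build a membrane skeleton with beaded filaments and spectrin, and later lose their organelles. Crystallins are the abundant soluble proteins that give the lens its refractive power. The alpha crystallins are small heat shock proteins, whereas the beta and gamma crystallins form another family with a shared fold. Small Maf proteins bind DNA but lack a transactivation domain of their own, and they act as homodimers or as partners of Cnc and Bach proteins.

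Levels are given in normalized CPM, for which the authors divided read counts by library size and scaled each library by 1 composition factor, and errors are the SD of the 3 libraries (n = 3). The labels do not say that the 3 pools came from separate litters, so the spread may be partly technical. Fewer cells of a type and less RNA per cell cannot be told apart in such bulk RNA. Detected genes are those that reached a value of 1 in 2 or more libraries. The authors had already filtered low values, and 85.5% of all genes with a symbol were detected. Counts of detected genes in a list are to be read beside that share. Read depth is unknown, since the values are scaled and rounded to 1 decimal. Entries without a symbol held 31.5%, 32.4% and 31.6% of the summed values of replicates 1, 2 and 3.

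The 4 genes chosen as markers of lens tissue were looked up first, and 3 of them were present. *Mip*, the main water channel of fiber cells, measured 8879, 10197 and 9443 in replicates 1, 2 and 3. *Prox1*, a homeodomain factor of fiber differentiation, measured 237, 276 and 244. *Foxe3*, a forkhead factor of the epithelium, measured 127, 125 and 118. The 3 libraries were close for each of these genes, with a highest value of at most 1.16 times the lowest. *Cryaa*, the alpha A crystallin, had no entry under its symbol, and its level is not given here.

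A few genes filled much of each library, and most of them were crystallins. Of the 15782 genes, 13500 (85.5%) were detected, and 9 were listed at 0 in all 3 libraries. The 10 genes with the highest values held 26.9 ± 1.51% of the total of genes with a symbol, the highest 100 held 43.6%, and the highest 1000 held 65.9%. Crystallins made up 9 of the highest 10 and 12 of the highest 20, which is a share of reads and favors long transcripts. The median detected gene measured 13.8, whereas 55 genes reached 1000. Much the same genes led in every library, as 9 of the highest 10, 19 of the highest 20 and 93 of the highest 100 were shared by all 3.

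**Figure D1:**
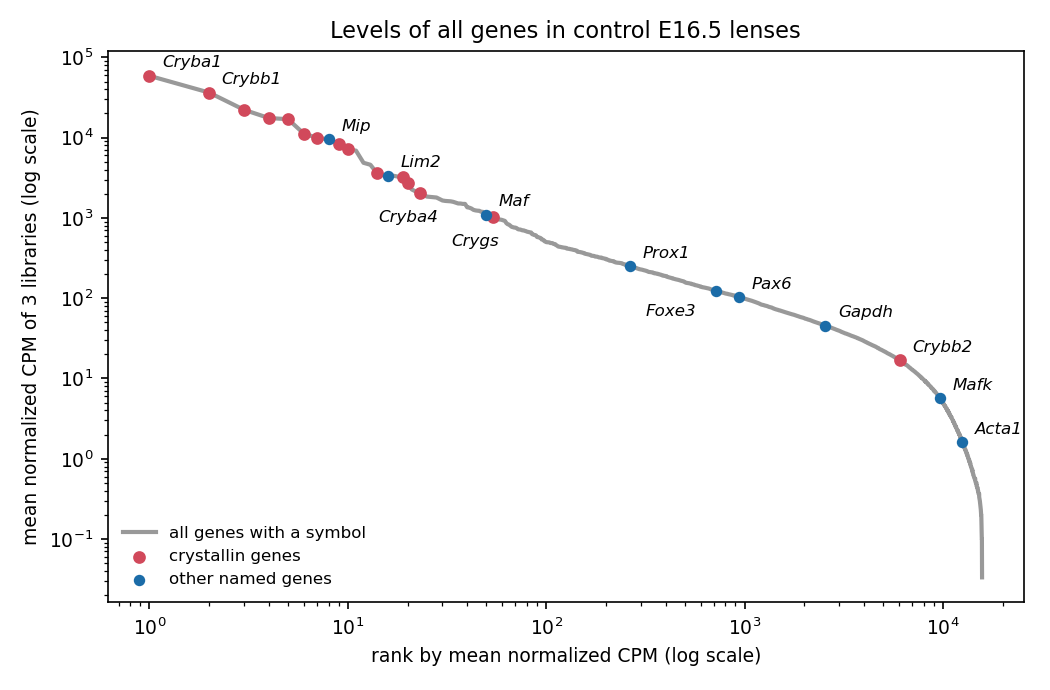
Mean normalized CPM of the 3 control libraries (vertical axis, log scale) against the rank of each gene (horizontal axis, log scale), with crystallin genes in red and other named genes in blue on the grey line of all genes with a symbol. Crystallins fill 9 of the first 10 ranks and *Mip* has rank 8, while *Crybb2* lies at rank 6048, far from the other crystallins.

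Since levels of different genes can only be compared per length, each value was also divided by the length of the longest annotated transcript in kilobases (kb). The same was done with the canonical transcript, the 1 that Ensembl chose for each gene, because the longest can differ from it much. The 10 highest genes per kb were all crystallins with either length. The 15 crystallin genes with an entry, of 16 listed, held 26.1%, 29.1% and 26.8% of the symbol total in replicates 1, 2 and 3. Per kb they held 47.1% of the total with the longest transcript and 49.9% with the canonical transcript. Genes without an entry, *Cryaa* among them, may be listed among the entries without a symbol, which was not tested and would change these shares and ranks.

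The 100 bases upstream of the annotated start are shown for the 6 related gamma crystallins *Cryga* to *Crygf*, because these genes differed in level while parts of their upstream sequences are alike. The sequences are those of RefSeq on GRCm38.p6, written 5′ to 3′ on the strand of the gene, and end at the base before the start. Capitals mark each TATAAA or TATATA in the last 60 bases, where only the strand of the gene was searched and overlapping matches run together.

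Cryga: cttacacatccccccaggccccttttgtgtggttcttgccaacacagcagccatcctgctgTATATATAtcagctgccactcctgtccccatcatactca
Crygb: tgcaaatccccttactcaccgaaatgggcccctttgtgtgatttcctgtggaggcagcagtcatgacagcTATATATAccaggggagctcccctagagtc
Crygc: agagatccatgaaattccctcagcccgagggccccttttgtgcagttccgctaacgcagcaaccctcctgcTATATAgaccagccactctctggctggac
Crygd: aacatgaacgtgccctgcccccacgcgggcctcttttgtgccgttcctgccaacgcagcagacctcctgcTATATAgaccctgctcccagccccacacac
Cryge: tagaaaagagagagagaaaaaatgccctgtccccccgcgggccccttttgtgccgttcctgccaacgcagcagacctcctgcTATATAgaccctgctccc
Crygf: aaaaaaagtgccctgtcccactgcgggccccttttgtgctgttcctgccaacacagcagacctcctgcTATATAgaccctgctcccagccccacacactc

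The windows lie at chr1:65103364-65103463 for *Cryga*, chr1:65082291-65082390 for *Crygb*, chr1:65073533-65073632 for *Crygc*, chr1:65063441-65063540 for *Crygd* and chr1:65051164-65051263 for *Cryge* on the minus strand, and at chr1:65926422-65926521 for *Crygf* on the plus strand. All 6 held TATATA, starting between 18 and 39 bases before the annotated start. They were compared without gaps over 48 bases, of which 30 lie before the motif and 18 from its first base on. *Crygd* and *Cryge* were identical at all 48 bases, and each matched *Crygf* at 46. *Crygc* matched these 3 genes at 33 to 35 bases. *Cryga* and *Crygb* matched each other at 14 bases and the remaining 4 genes at 15 to 19. Without gaps, stretches that are alike but shifted against the motif count as mismatches. The stretch gccaacacagcag, for example, is found in both *Cryga* and *Crygf*, but further from the motif in *Cryga*. Low counts therefore do not show that these sequences are unlike.

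The same window is shown for *Cryba1* and *Crybb1*, the highest genes by value, and for *Crybb2*, the lowest crystallin with an entry.

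Cryba1: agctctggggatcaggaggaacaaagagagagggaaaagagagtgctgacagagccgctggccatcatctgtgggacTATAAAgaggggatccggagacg
Crybb1: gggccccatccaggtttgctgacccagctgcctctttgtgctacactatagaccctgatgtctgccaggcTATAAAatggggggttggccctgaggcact
Crybb2: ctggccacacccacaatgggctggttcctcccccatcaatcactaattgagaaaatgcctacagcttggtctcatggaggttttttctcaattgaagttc

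These windows lie at chr11:77725294-77725393 for *Cryba1* and chr5:113070118-113070217 for *Crybb2* on the minus strand and at chr5:112255720-112255819 for *Crybb1* on the plus strand. *Cryba1* and *Crybb1* held TATAAA, starting 23 and 30 bases before the start. The letters upstream of *Crybb2* held neither motif in the last 60 bases. The same was true of *Cryba2*, *Crybb3* and *Cryba4*, whose means were 9961, 3209 and 2055 normalized CPM. A missing motif was thus not particular to the lowest crystallin. Of 14 crystallin genes with both a start in RefSeq and an entry, 10 (71.4%) held at least 1 motif, against 4.85% of all genes in the RefSeq table. By level in control lenses, the share was 5.07% for genes below 1, 2.39% from 1 to 10, 1.55% from 10 to 100, 4.87% from 100 to 1000, and 41.2% (14 of 34) at 1000 or more. Among genes at 1000 or more that are no crystallins, 4 of 21 held a motif. A match describes these letters only, and no binding was measured.

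*Cryba1*, which encodes the beta A1 and A3 crystallins (chromosome 11, 77609441 to 77616120, GRCm39), had the highest level of all genes with a symbol on each scale. It measured 55969.9, 61906 and 58647 normalized CPM, or 42731 ± 2159 per kb. No library of another gene with a symbol reached these values. *Crybb1* (chromosome 5, 112400811 to 112417965) was next by normalized CPM, with 32662, 41960.5 and 34513. Its place among levels depends on the length used, with 8614 ± 1166 per kb of the longest transcript (rank 9) and 26040.4 per kb of the canonical transcript (rank 4). *Cryba2* measured 8979, 11160.2 and 9745, or 10792 ± 1199 per kb, and overlapped with *Crybb1* between libraries, with the opposite order by canonical length. *Crybb3* measured 2975, 3936 and 2716, or 2261 ± 453 per kb.

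*Cryba4* varied most between replicates among the crystallins. It measured 2193 and 2870.4 in replicates 1 and 2 but 1101 in replicate 3, and it was the only gene at 1000 or more with a 2-fold range. A 2-fold range means here and below that the highest library plus 1 was at least 2 times the lowest plus 1, which held for 9.99% of genes with a mean of at least 10 and 11% of detected genes. The annotated spans of *Cryba4* (chromosome 5, 112394359 to 112402226) and *Crybb1* overlap on opposite strands, at the start of each gene. The reads were strand-specific, but whether the authors' counting used the strand is not given in the sources used here. *Crybb2* (chromosome 5, 113206124 to 113217983) was low in all libraries, at 15.1, 21.2 and 14. Per kb, the mean of *Cryba1* was 2309 times that of *Crybb2* with the longest transcript and 3251 times with the canonical one. *Cryab*, the alpha B crystallin, measured 2534, 2546 and 3191, with its highest value in replicate 3.

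The gamma crystallins *Cryga* to *Cryge* lie side by side on chromosome 1 (65087713 to 65142537), and *Crygf* lies further along it (65965679 to 65967466). Together these 6 genes held 11.3 ± 0.798% of the symbol total. Per kb, *Cryga* (30960.1 ± 2219.7) and *Crygb* (27183 ± 3582) were highest, and their libraries overlapped. *Crygd* (20010.1 ± 2842) came next, with every library below those of *Crygb*, and overlapped with *Crygf* (17888 ± 1631). *Crygc* (10725 ± 3172) and *Cryge* (9848 ± 2045) were the lowest of the 6 and overlapped with each other. This order held with canonical lengths.

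*Crygd* and *Cryge*, whose upstream sequences were identical over the compared bases, differed in level. *Crygd* measured 15958, 19719 and 15228 normalized CPM and *Cryge* 6243, 8839.6 and 6307, and per kb, too, every library of *Crygd* was above every library of *Cryge*. Some reads cannot separate such genes. Of all windows of the length of 1 read, 22.2% of those in *Crygb* occur in *Crygc*, 10.7% of those in *Crygd* occur in *Cryge*, and 11.6% of those in *Crygf* occur in *Cryge*. Of the windows in *Cryge*, 7.37% occur in *Crygd* and 9.78% in *Crygf*. Levels within the cluster are therefore uncertain. These shares do not give the size of that uncertainty, since the reads were paired-end and each window stands for 1 read alone. The gene model *Gm28845* holds 40.5% of the windows of *Cryga* but measured only 0.967 ± 0.153.

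The other gamma crystallins were lower. *Crygn* measured 3223, 4196 and 3493, or 4736 ± 655 per kb. *Crygs*, which is expressed into adult life, measured 1045, 844 and 1191, or 1174 ± 199 per kb, and was the only 1 of the 8 gamma crystallins with its lowest value in replicate 2.

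**Figure D2:**
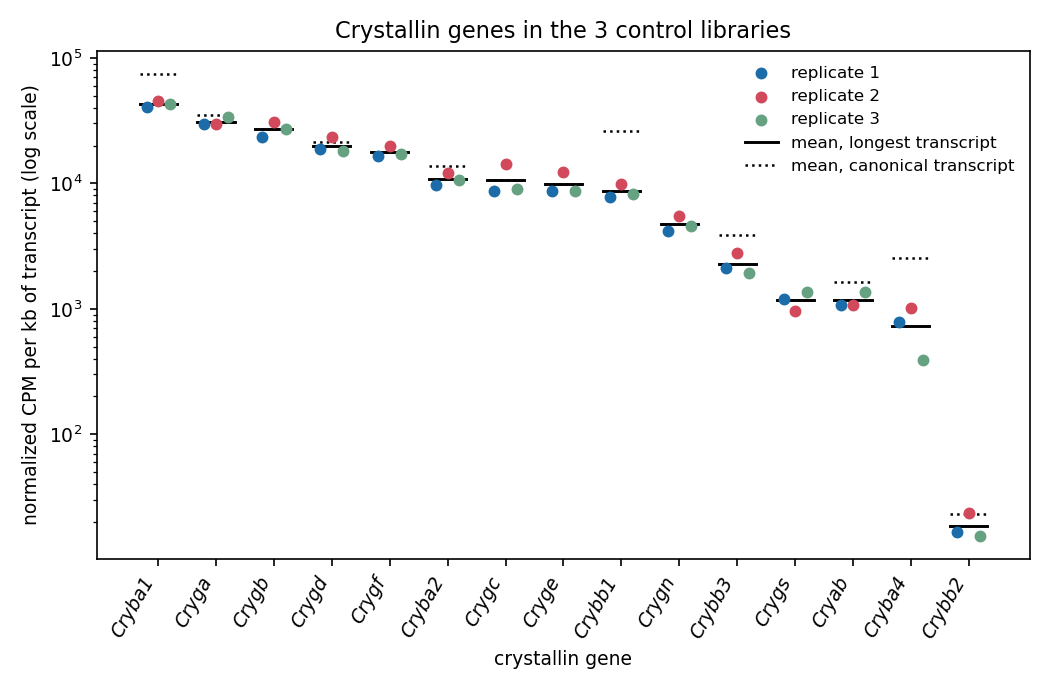
Normalized CPM per kb (vertical axis, log scale) of the 15 crystallin genes with an entry in each of the 3 libraries (colored points), divided by the longest transcript, with solid lines for the mean and dotted lines for the mean by canonical length. The order runs from *Cryba1* at 42731 to *Crybb2* at 18.5, and replicate 3 of *Cryba4* lies below its other libraries.

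Fiber membrane genes spanned a wide range of levels. *Mip* (4419 ± 307 per kb) and *Lim2*, another intrinsic membrane protein of fibers (3733 ± 386 per kb), overlapped between libraries and were far above the rest. Reads of *Lim2* are partly shared, since the gene model *Gm52993*, which has no entry, contains 76.4% of its windows. *Gje1*, a connexin-like gene, followed at 296 ± 21.8 per kb and *Cdh2*, the N-cadherin of fiber cells, at 98.9 ± 2.45. *Gja3*, which encodes the fiber connexin 46, measured 10.5, 10 and 10.1 normalized CPM, or 2.21 ± 0.0573 per kb, below the median detected gene at 3.68. By canonical length *Gja3* itself measured 3.69 per kb, which cannot be set against that median by longest transcript. *Aqp5*, another water channel, measured 1.3, 1 and 1.6 normalized CPM. *Tmem114* had no entry. Of the 13 listed genes with an entry, 12 were detected, beside 85.5% of all genes. The list median of 9.05 per kb compares with 3.68 over all detected genes. *Lctl* varied most, at 49.9, 35 and 7.5.

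The beaded filament, a network particular to fiber cells, is built of *Bfsp1* (filensin) and *Bfsp2* (phakinin), and these genes differed widely in level. *Bfsp1* measured 4539, 5520.2 and 4519 normalized CPM and *Bfsp2* 71.2, 104 and 77.8. Per kb this was 2033 ± 239 against 50.7 ± 10.4, with no overlap between libraries. *Vim*, the intermediate filament protein of epithelium and young fibers, measured 327 ± 15.6 per kb, and the spectrins *Sptan1* and *Sptbn1* of the membrane skeleton 195 ± 9.23 and 174 ± 8.83. The small heat shock proteins *Hspb1* and *Hspb8* measured 8.22 ± 1.96 and 2.53 ± 0.0721 per kb, far below *Cryab* of the same family at 1167 ± 159. *Add1*, an adductin, was the only 1 of the 14 genes with a 2-fold range, at 169.7, 81.1 and 74.4. *Ank2*, an ankyrin of the membrane skeleton, measured 208, 362 and 300.4.

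Of the other fiber genes, *Grifin*, a lens protein related to galectins, was highest at 457 ± 42.6 per kb. *Tdrd7*, a component of RNA granules, measured 1599, 651 and 605, and was the only member of its list with a 2-fold range. The RNA-binding proteins *Celf1* and *Rbm24* varied far less, at 558, 538 and 519 and 108, 111 and 96.1. *Cdkn1c*, the cell cycle inhibitor p57 of early fiber cells, measured 190.4, 267 and 204. *Lgsn*, or lengsin, was near the limit of detection at 1.1, 1.4 and 2.3. All windows of *Lenep* (4.87 ± 1.10) are also part of *Flad1* (3.5, 4.6 and 15.6), so that reads of *Lenep* may be assigned to either gene. Outside the list, *Capn3*, a calpain with a lens form, measured 4172, 5974 and 3628 and was among the 20 highest genes by value, as was *Cd24a*, a surface glycoprotein, at 3195, 3463 and 3378.

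Genes of the lens capsule had high values and, with 2 exceptions, less than a 2-fold range. *Col4a1* and *Col4a2*, the most widespread chains of type IV collagen, measured 3116, 3494 and 3180.2 and 2165, 2419.5 and 2199 normalized CPM, or 493 ± 30.6 and 335 ± 20.5 per kb. *Nid1*, which links collagen IV to laminin, measured 1771, 1851 and 1819. *Sparc*, a collagen-binding protein, measured 848, 819 and 1271, so that replicate 3 was high for *Sparc* while the libraries of *Nid1* were nearly equal. The chains *Col4a5* and *Col4a6* were lower, at 45.2 ± 4.48 and 71.2 ± 3.14 per kb, and *Col4a3* and *Col4a4* lower still, at 1.25 ± 0.21 and 1.87 ± 0.201. Of the laminin chains, *Lama1*, *Lamb1* and *Lamc1* measured 23.1 ± 0.308, 46.7 ± 2.01 and 29 ± 2.17 per kb, while *Lama5* measured 0.5, 1.1 and 0 normalized CPM. The exceptions were *Lama5* and *Col18a1*, a chain of collagen XVIII, at 14.1, 37.9 and 28.5. All but *Lama5* of the 18 genes were detected, beside 85.5% of all genes. The list median of 17.2 per kb was at the 85.8th percentile of detected genes.

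Epithelial markers were present, and most of them had little spread. All 15 were detected, beside 85.5% of all genes, and none had a 2-fold range, which 11% of detected genes had. Their sum was 4104, 4117 and 4141, most of it from *Dkk3* (mean 1627) and *Sfrp1* (mean 1309), so it says little about the others. *Slc38a3*, a transporter gene, measured 34.8, 62 and 65.3. The secreted modulators of Wnt signaling *Sfrp1* (281 ± 8.16 per kb) and *Dkk3* (269 ± 5.26) led the list. *Foxe3* (142 ± 5.13) and *Cdh1*, the E-cadherin of the epithelium (52.6 ± 1.37), followed, and these 4 genes had the same order in each library. *Pdgfra*, the receptor through which PDGF acts on lens epithelium, measured 156, 172 and 164 normalized CPM, and *Gja1*, the connexin 43 gene, 187, 102 and 144. *Aqp1*, a water channel of the epithelium, measured 9, 4.5 and 7.4, a range of 2-fold before 1 is added to each value.

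Among lens transcription factors *Maf*, a known activator of crystallin genes, had the highest level. It measured 1054, 1198 and 1036 normalized CPM, or 172 ± 14 per kb, above *Foxe3* in every library. Both were above *Sox1*, which acts in fiber cells (53.1 ± 4.66 per kb). *Pitx3* (34.3 ± 2.68), *Mab21l1* (32.1 ± 3.32) and *Prox1* (30.3 ± 2.47) followed with libraries that overlapped between neighbors. With canonical lengths *Pitx3* (56.2) was above *Sox1* (53.1). *Six3* (20.8 ± 0.666) and *Hsf4*, a heat shock factor of fiber cells (20.4 ± 5.41), overlapped as neighbors as well. *Pax6*, the paired homeodomain factor required for eye formation, measured 121, 100.2 and 88 normalized CPM, or 12.1 ± 1.97 per kb. *Zeb2* (8.79 ± 0.475 per kb), *Sox2* (7.13 ± 1.14), *Tfap2a* (5.90 ± 0.0597) and *Gata3* (5.42 ± 0.569) were lower.

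All 27 factors with an entry were detected, beside 85.5% of all genes, and 23 had a mean of at least 10. Their median of 6.09 per kb was at the 64.0th percentile of detected genes. In their order per kb, 17 of 26 neighboring pairs overlapped between libraries, so that most adjacent places are not resolved by these 3 libraries. The order of 7 neighboring pairs turned with canonical lengths. *Tfap2b*, at 2.2, 1.6 and 4.9, was the only factor with a 2-fold range.

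The small Maf genes differed in level. *Mafg* (chromosome 11, 120515942 to 120524530) measured 113, 121 and 134 normalized CPM, or 14.8 ± 1.32 per kb. *Mafk* (chromosome 5, 139776804 to 139788408) measured 5.2, 6.3 and 5.6, or 1.16 ± 0.113 per kb. *Maff*, which the study did not delete, measured 3.6, 5.1 and 3.2, or 1.81 ± 0.457 per kb. Every library of *Mafg* was above every library of the other two. *Maff* was above *Mafk* per kb of the longest transcript, whereas per kb of the canonical transcript their means were 2.03 and 2.00. Control lenses carry 1 intact copy each of *Mafg* and *Mafk*, and the part of reads from the knockout alleles was not tested.

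Among the partners of small Maf proteins, *Nfe2l1* (13.3 ± 3.89 per kb) and *Bach2*, a transcriptional repressor (12 ± 0.806), were highest and overlapped between libraries. *Bach2* measured 104, 116 and 103 normalized CPM and *Nfe2l1* 45.2, 79.6 and 79.9, with replicate 1 of *Nfe2l1* below the others. *Nfe2l2*, the antioxidant regulator also known as Nrf2, measured 29, 31.4 and 31.2, and *Keap1*, its inhibitor, 30.5, 36.6 and 37.4. *Bach1* was lower, at 17 ± 1.08 normalized CPM. *Nfe2l3* was at most 0.4 in any library, and *Nfe2* had no entry.

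**Figure D3:**
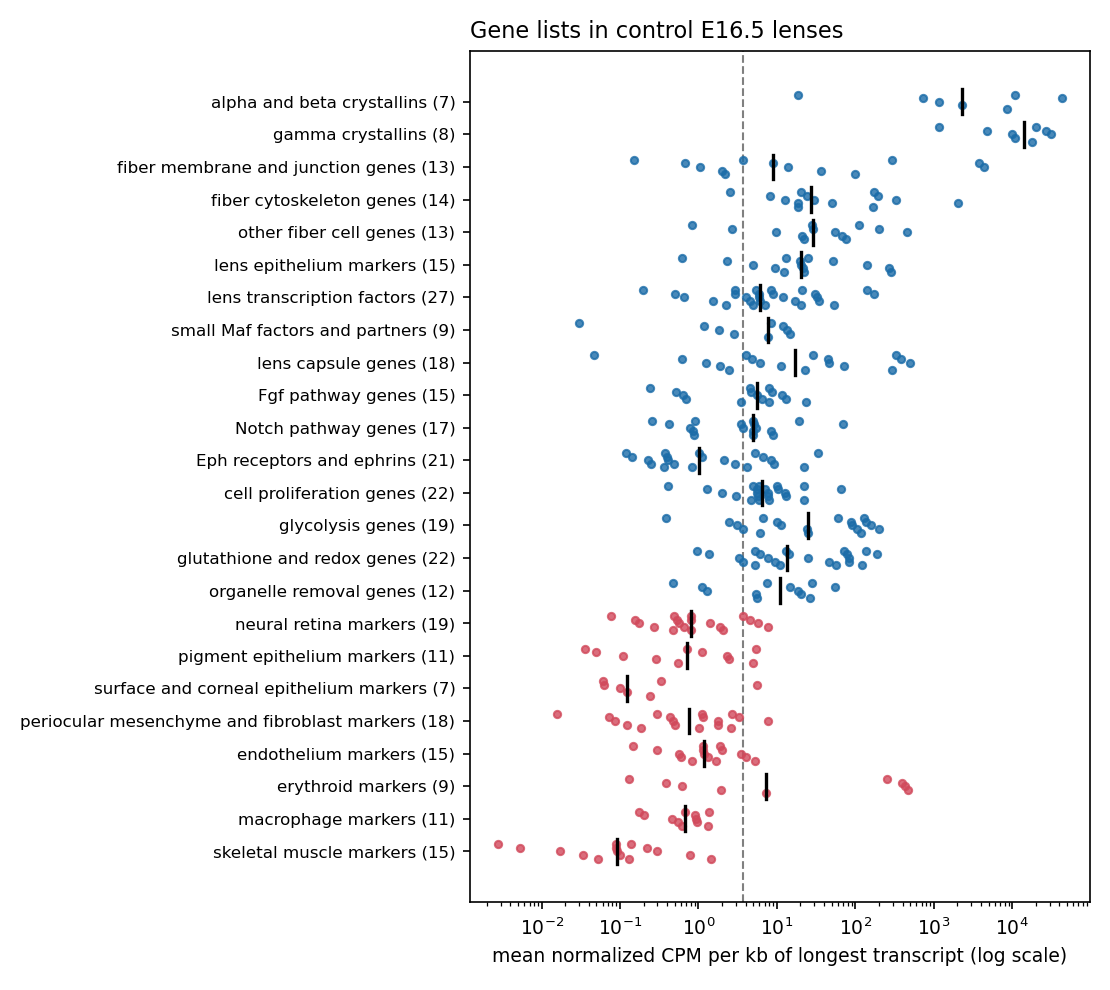
Mean normalized CPM per kb of the longest transcript (horizontal axis, log scale) of each gene in the 24 lists, with the number of genes with an entry in brackets, black ticks for the list median and a dashed line at 3.68, the median of all detected genes. Medians of the lens lists (blue) lie right of the line except that of Eph receptors and ephrins at 1.01, and medians of lists of other cell types (red) lie left of it except that of erythroid markers at 7.33.

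Genes of the Fgf pathway, which drives fiber differentiation in the mammalian lens, were at moderate levels. The receptors *Fgfr3* and *Fgfr1* measured 7.88 ± 1.15 and 7.84 ± 1.09 per kb. *Fgfr2* measured 46.9, 18.6 and 44.5 normalized CPM, with a lower value in replicate 2 than in the others, and was the only member with a 2-fold range. *Spry1* and *Spry2*, inhibitors that the pathway itself induces, measured 12.9 ± 0.629 and 8.63 ± 1.11 per kb, and *Dusp6*, a phosphatase of ERK, 4.70 ± 0.404. The Ets factors *Etv4* and *Etv1* were low, at 1.5, 1.8 and 1.4 and 2.1, 1.7 and 1.1 normalized CPM. *Fgf2*, *Fgfr4* and *Etv5* had no entry. All 15 genes with an entry were detected, beside 85.5% of all genes, with a median of 5.51 per kb.

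In the Notch pathway the ligand *Jag1* had the highest level, at 379.9, 432 and 387 normalized CPM (69.6 ± 4.95 per kb). The ligands *Dll1*, *Jag2*, *Dll4* and *Dll3* were each below 1 per kb. The receptors *Notch3*, *Notch1* and *Notch2* measured 8.97 ± 1.17, 5.34 ± 0.502 and 5.02 ± 0.25 per kb. *Lfng*, a glycosyltransferase that modifies Notch receptors, measured 19.1 ± 1.83, and *Hey1*, a target, 8.33 ± 0.506. Among Eph receptors and ephrins, which act in cell contacts, *Efnb2* (33 ± 0.692 per kb) and *Epha2* (22 ± 2.75) led. *Efnb1* (9.13 ± 0.607) and *Efna5* (8.32 ± 0.562) followed, and *Epha6* had no entry.

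Glycolytic genes had a high median level, and *Gapdh* differed widely between libraries. All 19 were detected, beside 85.5% of all genes, and their median of 25.2 per kb was at the 90.4th percentile of detected genes. Per kb of the longest transcript, *Hk2*, *Slc16a1*, *Hk1*, *Ldhb*, *Slc16a3*, *Pfkm* and *Pfkp* had lower means than *Gapdh*. *Pfkp* was at most 0.49 per kb in any library. *Pkm*, the pyruvate kinase, measured 1259.6, 1452 and 1311 normalized CPM, and *Slc2a1*, the glucose transporter Glut1, 709, 692 and 698. *Gapdh*, a common reference gene, measured 18.8, 34.8 and 82.9, and its highest library was 4.41 times its lowest. *Ldhb*, at 15.6, 5.3 and 8.3, was the only other member with a 2-fold range. In 95 other genes, windows of *Gapdh* occur, and 24.5% of its windows are shared. The copy *Gm7336* measured 76.7, 90.7 and 84.8, which exceeded the value listed for *Gapdh* in every library. The level of *Gapdh* is therefore uncertain, and whether shared reads account for its spread was not tested. Reads of *Aldoa* (68.1% of windows), *Pgk1* (67%) and *Pkm* (44.8%) are shared with another gene model as well, yet none of these had a 2-fold range. Other reference genes, chosen after their values were seen, varied less than *Gapdh*. *Actb* measured 525, 498 and 476, *Tubb5* 608, 608 and 618 and *Hprt* 23, 24.2 and 23.1.

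Redox genes were mostly above the median gene, and their libraries were close. The 22 genes had a median SD of 0.07 on the log2(value + 1) scale, the lowest of the 24 lists. *Gstp1*, a glutathione transferase, measured 189 ± 10.5 per kb, although 47.1% of its windows occur in *Gstp2*, and *Prdx2*, a peroxiredoxin, 135 ± 5.49. *Gclc* and *Gclm*, the subunits of the enzyme that starts glutathione synthesis, measured 28.5, 27.7 and 28.3 and 47.2, 49 and 50.3 normalized CPM. *Gss*, the enzyme of the next step, measured 133, 134 and 439, with replicate 3 apart from the others. *Hmox1* and *Nqo1*, which Nrf2 is known to activate, measured 2.17 ± 1.19 and 2.60 ± 0.1.

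Among genes linked to organelle removal in fiber cells, *Bnip3l*, a mitophagy receptor, had the highest level at 55.3 ± 4.01 per kb. *Dnase2b*, the lysosomal DNase that degrades fiber nuclei, measured 75.6, 78.8 and 68.6 normalized CPM. *Sqstm1* and *Map1lc3b*, components of autophagy, measured 26.1 ± 3.22 and 14.8 ± 1.39 per kb, or 31.5 and 68.9 with canonical lengths. *Atg7* measured 1.7, 1.9 and 14.6, with replicate 3 apart, while *Atg5* was similar in all libraries at 16.3, 15.4 and 13. *Casp6*, a caspase, was low at 4.33 ± 0.611 normalized CPM. *Plaat1* and *Plaat3*, phospholipases of organelle breakdown, had no entry.

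The 13 protein-coding genes of mitochondrial DNA held 3.07 ± 0.210% of the symbol total, led by *mt-Co1* at 6779, 6763 and 7101, and none had a 2-fold range. Some are listed beside a copy with almost the same values. The gene *mt-Co3* measured 1500.2, 1467 and 1566, and *Gm28437*, all of whose windows occur in *mt-Co3*, measured 1502, 1469 and 1568. Likewise *mt-Co2* measured 1494 ± 69.8 and *Gm28661* 1494 ± 69.6. The same reads may have been listed under both names. The 82 cytosolic ribosomal protein genes held 2.54 ± 0.0761%, with a median of 175 normalized CPM and *Rpl4* highest at 1231. Of these, 5 had a 2-fold range, among them *Rps3* at 54.9, 536 and 22. The counts for mitochondrial and ribosomal genes are to be read beside the 11% of all detected genes with a 2-fold range.

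Markers of other cell types were mostly low, but those of the neural retina differed between libraries. The 19 neural retina markers added up to 128, 40.4 and 131 normalized CPM in replicates 1, 2 and 3, and 16 of them had a 2-fold range. *Rax*, a factor of retinal progenitors, measured 14.4, 3.9 and 13.5. *Tubb3*, a neuronal tubulin, measured 21.2, 7.3 and 26.4, and *Crx*, a photoreceptor factor, 2.8, 0 and 3. Replicate 2 was low for markers of progenitors, neurons and photoreceptors alike, and it was the lowest library for 17 of the 19 genes. *Elavl4*, at 9.4, 8.9 and 8.4, and *Dcx*, at 0.1, 0.9 and 3.8, were the exceptions. Over all 7891 genes with a mean of at least 10, replicate 2 was lowest for 33.2% and highest for 37.9%. Over all detected genes it was lowest for 36.3% and highest for 33%.

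Some other lists leaned the same way. Replicate 2 was the lowest library for 18 of 22 cell proliferation genes, 14 of 18 markers of periocular mesenchyme, 9 of 11 macrophage markers and 7 of 11 pigment epithelium markers. Other lists did not, since replicate 2 was lowest for 4 of 15 endothelial markers and highest for 6 of 7 surface and corneal epithelium markers. Only 1 of these 7 was detected, and their median was 0.533 normalized CPM, so their order between libraries says little. Macrophage markers were low as well, with a median of 1.8. Replicate 2 was the highest library for 12 of the 15 crystallin genes and 9 of the 14 fiber cytoskeleton genes, but for 4 of the 13 fiber membrane genes and 6 of the 13 other fiber genes. The proliferation genes added up to 997, 761 and 890.3. *Mki67*, a marker of cycling cells, measured 74.4, 29.5 and 68.2, and *Pcna*, the replication clamp, 38.3, 26.5 and 37.2. *Mcm2*, a subunit of the replicative helicase, was almost equal at 92.2, 90.1 and 90.6. Epithelial markers showed less of this, with replicate 2 lowest for 8 of 15. The part of retinal or other non-lens RNA in these differences was not tested.

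**Figure D4:**
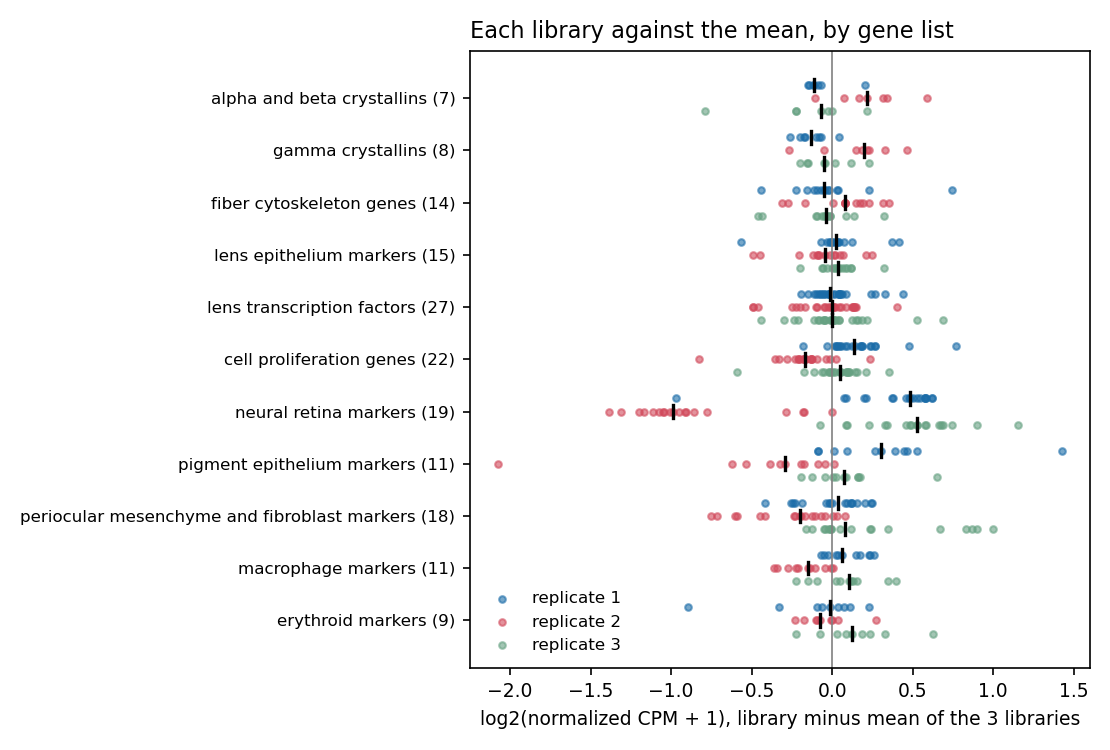
Each library minus the mean of the 3 libraries, on the scale of log2(normalized CPM + 1) (horizontal axis), for the genes of 11 lists, with black ticks at the median of each library and the number of genes in brackets. Replicate 2 lies left of the others for neural retina markers, of which it was lowest for 17 of 19, and mostly right of them for crystallins, of which it was highest for 12 of 15.

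The summed values of further marker lists follow, and the cells that these reads came from were not tested. Endothelial markers added up to between 81.9 and 99.7 normalized CPM, with *Egfl7*, *Cldn5* and *Tek* highest at 5.25 ± 0.385, 4.05 ± 0.163 and 3.52 ± 0.0402 per kb. Periocular mesenchyme markers added up to between 156 and 199, of which *Col5a1*, a fibrillar collagen chain, made up 65.1 ± 4.75, and *Col3a1*, another, measured 7.1, 4.7 and 18.2. Skeletal muscle markers added up to between 4.8 and 8.4, with *Myod1* and *Myog* at most 0.2 in any library. Macrophage markers added up to between 16.7 and 21.9, and *Ptprc* and *Aif1* had no entry. Surface and corneal epithelium markers added up to between 12.4 and 14.8, of which *Perp* made up 11 ± 1.07, and *Krt14*, *Krt12* and *Trp63* had no entry. Among pigment epithelium markers, which summed to between 72.4 and 106, *Mitf* (5.47 ± 0.314 per kb) and *Trpm1* (5.03 ± 0.973) were highest, *Tyr* was at most 1.3 normalized CPM, and *Rpe65*, *Best1* and *Slc45a2* had no entry.

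Globin genes were the only markers of other cell types above 100 normalized CPM. *Hbb-bs* measured 483, 461 and 516 and *Hbb-bt* 259.9, 231 and 252. *Hba-a1* measured 157, 354 and 454 and *Hba-a2* 251, 316 and 398, both lowest in replicate 1. Each of the 4 genes shares between 30.4% and 73.4% of its windows with its partner, so that reads may be split between them. *Alas2*, the erythroid enzyme of heme synthesis, measured 17.3, 13.4 and 17.4, and *Hbb-y*, an embryonic globin, 1.6, 1.2 and 0.9, while the erythroid factors *Gata1* and *Klf1* had no entry.

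For the 7891 genes with a mean of at least 10, the median SD over the 3 libraries was 0.10 on the log2(value + 1) scale, and the median coefficient of variation was 7.35%. The median SD was 0.19 for detected genes between 1 and 3 normalized CPM, 0.07 between 100 and 300, and 0.10 at 1000 or more. A 2-fold range was found in 788 of the 7891 genes (9.99%), a 4-fold range in 316 and a 16-fold range in 78. The library farthest from the median one was replicate 1 for 255 of the 788 genes, replicate 2 for 318 and replicate 3 for 215. No single library therefore held most of the variable genes.

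The genes with the least spread among those at 100 or more were *Caprin1*, *Dgcr2*, *Tmem245*, *Ncor1*, *Gm14150*, *Tspan3*, *Appbp2*, *Zfp91*, *Mtfr1l* and *Psap*. *Caprin1*, an RNA granule protein, measured 368 ± 0.153, and *Psap*, which encodes the lysosomal saposins, measured 332, 330.0 and 328. For each of these 10 genes the highest library was at most 1.01 times the lowest. At the other end, *Malat1*, a nuclear long non-coding RNA, measured 861, 102 and 1.4. *Kpna3*, an importin, measured 0, 174 and 167, and *Ik*, a splicing factor, 110.4, 0 and 117. The library that stood apart differed between these genes.

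The 15 genes with the largest SD also included *Gm28062*, *Gm20431*, *Syt11*, *Iqgap1*, *Klhdc3*, *Tnrc6b*, *Taf2*, *Chd9*, *Spen*, *Pik3c2a* and *Gm20716*, and each of the 15 was at 1.4 or less in at least 1 library. *Iqgap1*, an actin scaffold, measured 52.1, 0 and 56.5, and *Taf2*, a subunit of TFIID, 47.8, 0.1 and 48.5. In all, 44 genes were below 1 in 1 library and at least 10 in the other two, with 16, 16 and 12 such genes for replicates 1, 2 and 3, and 5 genes showed the reverse. Among entries without a symbol at 10 or more, 595 of 1966 (30.3%) had a 2-fold range, a larger share than the 9.99% of genes with a symbol. Whether reads of a gene were listed under another entry in these libraries was not tested.

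**Figure D5:**
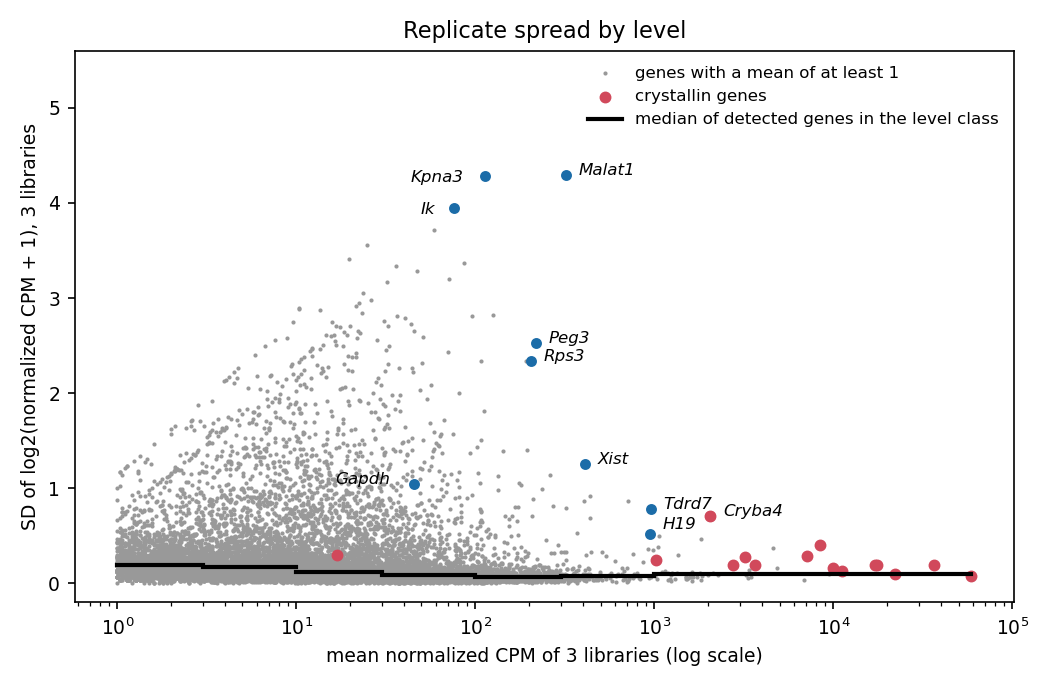
SD of log2(normalized CPM + 1) over the 3 libraries (vertical axis) against the mean normalized CPM (horizontal axis, log scale) for genes with a mean of at least 1 (grey), with crystallin genes in red, other named genes in blue and black lines at the median of detected genes in each level class. Class medians fall from 0.19 to 0.07 and end at 0.10, and *Malat1*, *Kpna3* and *Ik* lie highest.

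Some genes tied to the sex of the embryos or to imprinting were looked up as well, and these were chosen after their values were seen. *Xist*, which is transcribed from the inactive X chromosome of females, measured 582, 123 and 531. The Y-linked genes *Ddx3y*, *Kdm5d* and *Uty* measured 11.7, 30.8 and 11.5, then 8.9, 19.3 and 6.5, and 7.5, 16.1 and 5.8. Replicate 2 was thus lowest for *Xist* and highest for the Y-linked genes, and every library held RNA of both kinds. The sex of the embryos is not given in the labels. *H19*, an imprinted non-coding RNA, measured 665, 815 and 1348, and its neighbor *Igf2*, a growth factor, 826, 1186 and 737. *Peg3*, another imprinted gene, measured 333, 14.4 and 308, with replicate 2 far below the others. Of the other imprinted genes looked up, *Gnas* measured 708, 943 and 624, *Grb10* 179, 146 and 160.2, *Meg3* 18.4, 21.7 and 11.4 and *Dlk1* 0.3, 0.2 and 0.4. Among these 7 imprinted genes, *H19* and *Peg3* had a 2-fold range and the others did not.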

How the data were processed

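RNA of control lenses was sequenced as strand-specific paired-end reads, and the authors' processing used HISAT2, StringTie and edgeR with the mm39 genome. Trimmomatic and Cufflinks are also named in the submitters' processing notes, without versions. The deposited values are a signal, normalized CPM, for which the authors divided counts by library size, applied 1 composition factor to each library and filtered low values, with 1 decimal kept. Of the deposited columns, 6 belong to other groups and were not used. Entries without a symbol, 22 whose symbol is a date, and repeats of a symbol were left out or reduced to 1 entry, which kept 15782 genes.

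Levels per kb used GENCODE M39 (GRCm39), to which 15151 genes (96.0%) were matched, 720 of them by an older symbol. Upstream sequences came from RefSeq (GRCm38.p6). Spread is the SD of log2(value + 1). No statistical test was made, since there is 1 group. Scripts used Python 3.11.15, numpy 2.4.6, pandas 2.3.3 and matplotlib 3.10.9, and only the spread statistics were tested on simulated data. The depth of a library cannot be read from such values, and counting intervals are therefore not given.

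Genes named are those of 24 lists (386 different genes), the 20 highest by mean, the 15 highest per kb, the 15 with the largest SD at a mean of at least 10 and the 10 with the smallest at a mean of at least 100. The members and lists were chosen with earlier results of these data known. Alternatives changed scaling, pseudocount, filters, denominator, transcript length and libraries. Some of these genes are not reported here.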

Additional observations from a re-analysis of the deposited data

Results flagged for a closer look

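A large part of the data lies in entries without a gene symbol, which were used for no level given above. These entries held 31.8 ± 0.470% of the summed normalized CPM of the 3 control libraries. The largest of them measured 127281, 147700 and 132150 in replicates 1, 2 and 3 (mean 135710), which is above Cryba1, the highest gene with a symbol, in every library. What these entries are was not tested.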

How the results depend on the processing

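No paired analysis was possible because only 1 group was described and its results come from no test. The number of detected genes stayed between 12710 and 15773 over all filters and scalings, and between 12896 and 13097 when a replicate was left out. The share of the 10 highest genes was 18.3% and that of the crystallins 18.6% with all entries as the denominator, and leaving out a replicate gave 26.1 to 27.5% and 26.4 to 27.9%. The crystallin share per kb was 47.1% with the longest transcript, 49.4% with the exon union and 49.9% with the canonical transcript, a length chosen after seeing the data. The median SD was 0.115 (log2) with library size as the only scaling and 0.131 over all detected genes. It was 0.0744 to 0.0904 without 1 replicate, where the SD is over fewer libraries and cannot be compared directly. The count of genes with a 2-fold range was 1482 over all detected genes, 50 at a mean of at least 100, and 462, 414 and 508 without replicates 1, 2 and 3, where the range is over fewer libraries. Other scalings and the pseudocount of 0.1 gave 754 to 821. Unknown depth limits what can be said of genes near 1 normalized CPM.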
